A study of Mus musculus with 22 samples.

Results

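Genomic imprinting leaves a gene active on the chromosome from 1 parent and silent on the other. Many imprinted genes act on growth, and several were first studied as regulators of fetal growth, muscle or fat. The genes followed here are 10 imprinted genes with known roles in fat, precursor or growth control: Nnat, Mest, Peg3, Plagl1, Ndn, Igf2, H19, Grb10, Dlk1 and Cdkn1c. The set was chosen by the log2 values of Nnat at 5 °C and 28 °C on these same arrays, where it was seen to be lower after cold, so its cold values are given as a description with no test. The other genes were listed for their function, with earlier results of these data known. A gene was taken as measured when a probe set carried its symbol and no other, and where there were several such probe sets the one with the highest mean over all arrays stood for the gene. Of the 10 genes, 9 were measured, among 22180 genes in all. The probe set of H19, a maternally expressed long noncoding RNA next to Igf2, also carries the symbol of the microRNA gene Mir675 that lies inside it, so H19 has no value here.

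The arrays measured RNA of whole inguinal white fat, a subcutaneous depot that gains heat-producing adipocytes in cold. The mice were males on a C57BL/6J background, aged 3 to 4 months at the start, and either lacked PPARα, a nuclear receptor for fatty acids, in the whole body or were wild type. After 5 weeks at 28 °C, a temperature at which a mouse spends no extra energy on heat, they either stayed there or had 1 week at 21 °C and then 10 days at 5 °C. There were 5 PPARα-null mice at 5 °C, 6 PPARα-null mice at 28 °C, 5 wild-type mice at 5 °C and 6 wild-type mice at 28 °C, with 1 array per mouse. Both lines came from a supplier and were bred further at 1 facility, after more than 10 generations of backcrossing, and the labels do not say whether the mice were littermates. The lowest, median and highest values of Ppara, the gene of PPARα, were 5.77, 5.99 and 7.10 in null mice at 5 °C, 4.14, 4.91 and 5.45 in null mice at 28 °C, 6.13, 6.50 and 6.98 in wild-type mice at 5 °C and 4.42, 4.74 and 5.00 in wild-type mice at 28 °C. The genotypes overlapped, and no source used here says whether the probes lie in the deleted part, so Ppara signal is no test of the labelled genotypes here. The score of 8 mature adipocyte markers (the mean of their log2 values), 10.91 to 11.30 over the arrays against array medians of 4.16 to 4.25, showed these fat markers at high levels in all pads. All levels below are log2 expression values as deposited, in which 1 unit is a doubling, and the number of arrays limits their precision.

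The set holds genes of several roles. Nnat encodes neuronatin, a small membrane proteolipid of the endoplasmic reticulum that is made in neurons, in islets and in adipocytes. Mest encodes a protein of the alpha/beta hydrolase fold whose RNA varies with fat mass in mice. Plagl1 and Peg3 encode zinc finger transcription factors, and Ndn encodes necdin, a MAGE family protein that restrains proliferation and adipocyte differentiation. Igf2 is a growth factor ligand, and Grb10 an adaptor that dampens signalling at the insulin and IGF1 receptors. Dlk1 encodes preadipocyte factor 1, a membrane protein that holds back adipogenesis, and Cdkn1c encodes p57, an inhibitor of cyclin-dependent kinases.

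Promoter sequences are shown for the 3 genes whose arrays at 5 °C lay wholly below those at 28 °C in at least 1 genotype, and for Peg3, which had the largest genotype values. They are from RefSeq on build GRCm38.p6, run from 250 bases before the annotated start to 50 bases after it, are written 5′ to 3′ on the gene's strand, and carry CpG dinucleotides in capitals. Nnat is at chr2:157559828-157560127 on the plus strand, Plagl1 at chr10:13090582-13090881 on the plus strand, Ndn at chr7:62348027-62348326 on the plus strand and Peg3 at chr7:6730370-6730669 on the minus strand.
Nnat: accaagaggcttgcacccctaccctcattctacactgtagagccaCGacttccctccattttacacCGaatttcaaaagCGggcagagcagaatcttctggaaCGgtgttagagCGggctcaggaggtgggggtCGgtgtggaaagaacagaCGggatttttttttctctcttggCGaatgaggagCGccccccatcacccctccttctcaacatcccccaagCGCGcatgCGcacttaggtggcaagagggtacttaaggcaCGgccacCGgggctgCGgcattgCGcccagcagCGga
Plagl1: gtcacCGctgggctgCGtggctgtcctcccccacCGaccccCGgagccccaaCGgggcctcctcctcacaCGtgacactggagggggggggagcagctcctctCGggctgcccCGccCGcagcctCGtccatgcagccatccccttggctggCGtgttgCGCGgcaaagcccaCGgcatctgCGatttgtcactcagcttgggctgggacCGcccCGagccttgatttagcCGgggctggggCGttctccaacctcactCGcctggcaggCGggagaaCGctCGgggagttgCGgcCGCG
Ndn: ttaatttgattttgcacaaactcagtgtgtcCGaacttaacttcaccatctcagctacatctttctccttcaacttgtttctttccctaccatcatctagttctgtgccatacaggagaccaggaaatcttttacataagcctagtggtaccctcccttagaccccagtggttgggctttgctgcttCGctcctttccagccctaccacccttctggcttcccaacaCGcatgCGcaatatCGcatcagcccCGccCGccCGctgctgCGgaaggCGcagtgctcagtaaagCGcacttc
Peg3: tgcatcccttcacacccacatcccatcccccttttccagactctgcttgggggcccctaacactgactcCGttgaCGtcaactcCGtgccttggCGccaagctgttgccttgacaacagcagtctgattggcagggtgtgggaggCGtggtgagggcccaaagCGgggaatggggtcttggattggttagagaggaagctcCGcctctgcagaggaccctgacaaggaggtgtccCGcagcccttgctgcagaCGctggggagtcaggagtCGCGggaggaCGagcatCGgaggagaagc

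The Nnat window held 17 CpG dinucleotides, against a median of 7 over 32851 promoters of the same length, and 68.6% of those promoters held fewer. The Plagl1 window held 26, the Peg3 window 13 and the Ndn window 11, with 83.1%, 62.1% and 58.6% of promoters holding fewer. Motifs were searched on both strands. The GC box GGGCGG was found in 2 places in the Plagl1 window and in 2 overlapping places in the Ndn window, and it was found in 35.7% of all promoters. Plagl1 also held 2 E-boxes (CANNTG, found in 72.3% of promoters). Peg3 held 2 CCAAT boxes (37.4% of promoters) and 1 cAMP response element TGACGTCA (1.79% of promoters). The direct repeat of AGGTCA with 1 base between the copies, the element to which PPAR dimers bind, was found in none of the windows of the 8 measured genes that the promoter table holds, and in 0.0396% of all promoters.

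Nnat is the gene that chose the set, and its levels are described first. In PPARα-null mice at 5 °C the 5 arrays had 10.29, 10.99, 10.25, 9.15 and 10.23, against a lowest value of 10.81, a median of 11.32 and a highest of 11.41 at 28 °C. In wild-type mice at 5 °C they had 8.88, 9.45, 10.36, 10.43 and 9.91, against 11.20, 11.29 and 11.40 for the lowest, median and highest at 28 °C. The cold arrays were lower than all 28 °C arrays in wild type, and in null mice 1 cold array overlapped the range at 28 °C. The difference between 5 °C and 28 °C was −1.05 ± 0.26 in null mice and −1.48 ± 0.26 in wild-type mice (log2, SE). A second probe set of Nnat, at lower levels, averaged 7.19 ± 0.51 at 5 °C and 8.15 ± 0.25 at 28 °C in null mice (SD, n = 5 and 6), and 6.92 ± 0.44 at 5 °C and 8.26 ± 0.13 at 28 °C in wild-type mice (SD, n = 5 and 6). Both probe sets were thus lower at 5 °C in each genotype.

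The spread of Nnat also differed between the temperatures. Its SD around the group means, pooled over genotypes, was 0.66 at 5 °C and 0.17 at 28 °C, a ratio of 3.78. The median ratio over all genes was 1.02, and 10 of the 22180 genes had a larger ratio than Nnat. This is a description of the arrays that chose the gene. In the fit, which pools the 4 groups, this unequal spread enters as 1 common value.

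**Figure D1:**
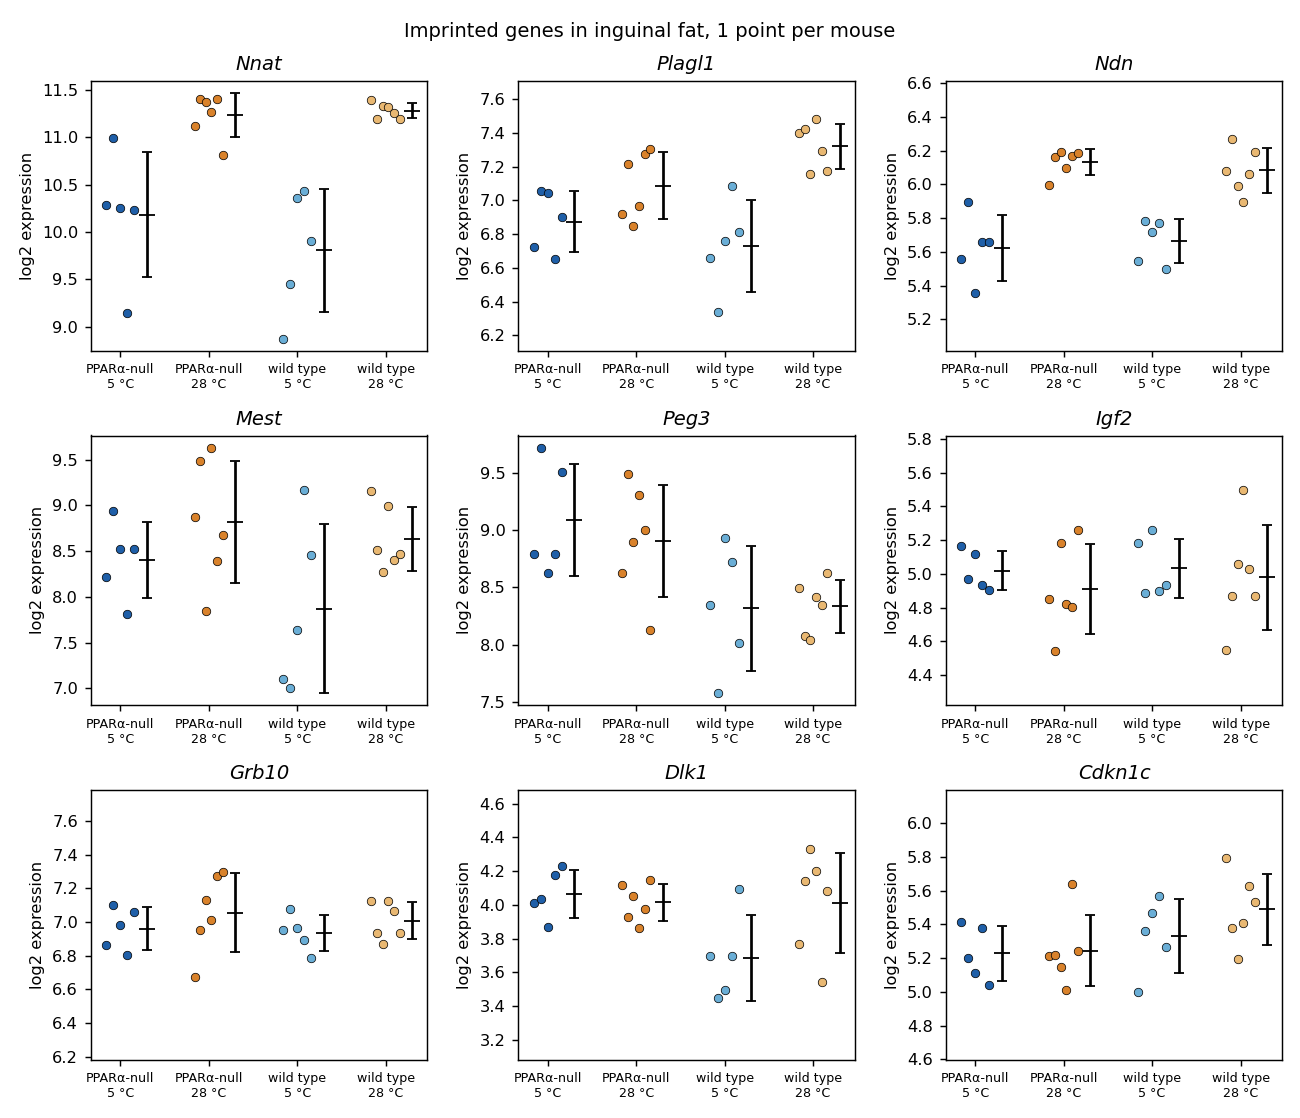
Log2 expression of the 9 measured imprinted genes (y axis, a separate scale for each gene) in each mouse of the 4 groups (x axis). Points are mice, and the bar beside each group is the mean ± SD (n = 5 at 5 °C, n = 6 at 28 °C). Nnat, Plagl1 and Ndn in wild type lie lower at 5 °C with no overlap, and Ndn does so in PPARα-null mice too. The points of Mest, Peg3 and, at 5 °C, Nnat scatter most.

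Each of the other genes was tested with limma, fitted over all 22180 genes at once, with p-values adjusted over all of them by the Benjamini-Hochberg method, and a gene passed at an adjusted p under 0.05. Of the 8 measured genes other than Nnat, 1 was lower at 5 °C in PPARα-null mice and 2 were lower in wild-type mice, and none was higher. Over all genes tested, 13.2% passed in PPARα-null mice (6.33% lower and 6.88% higher) and 16.7% in wild type (8.3% lower and 8.35% higher), and counts of 1 and 2 among 8 genes are too small to be set apart from those shares. The median cold effect of the 8 genes was −0.06 in null mice and −0.24 in wild-type mice, beside −0.0034 and 0.0093 over all genes. The RNA is from whole tissue, where fewer cells of a type and less RNA per cell cannot be told apart.

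Ndn fell in cold in both genotypes. In null mice it had 5.56, 5.89, 5.36, 5.66 and 5.66 at 5 °C, against a lowest, median and highest value of 6.00, 6.16 and 6.19 at 28 °C. In wild-type mice it had 5.55, 5.78, 5.72, 5.77 and 5.50 at 5 °C, against 5.90, 6.07 and 6.27 at 28 °C. Every cold array lay below every 28 °C array of its genotype, a separation in that direction that 4.06% of all genes showed in null mice and 5.53% in wild type. The cold effect was −0.51 ± 0.09 in null mice (limma adjusted p = 0.000308) and −0.42 ± 0.09 in wild-type mice (limma adjusted p = 0.00162). The difference of the cold effects was −0.09, with a 95% interval of −0.35 to 0.17.

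Plagl1, which encodes an activator of other growth genes, fell in cold in wild-type mice. It had 6.66, 6.34, 6.76, 7.09 and 6.81 in wild-type mice at 5 °C, against a lowest, median and highest of 7.16, 7.35 and 7.48 at 28 °C, with no overlap. The change was −0.59 ± 0.12 (limma adjusted p = 0.00112). In null mice it had 6.73, 7.05, 7.04, 6.65 and 6.90 at 5 °C, against 6.85, 7.09 and 7.31 at 28 °C, and these ranges overlapped. The value there was −0.21 ± 0.12 (limma adjusted p = 0.295). The difference of the cold effects was 0.38 (95% interval 0.03 to 0.73) and did not pass (limma adjusted p = 0.963), and it was 0.18 with the probe sets of a gene averaged. A second, dim probe set of Plagl1 averaged 2.54 ± 0.50 at 5 °C and 2.93 ± 0.29 at 28 °C in null mice, and 2.65 ± 0.39 and 3.02 ± 0.32 in wild-type mice (SD, n = 5 and 6), below the array medians of 4.16 to 4.25.

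Mest varied more between mice of 1 group than any other gene of the set. In null mice it had 8.22, 8.94, 8.53, 7.81 and 8.53 at 5 °C, against a lowest, median and highest of 7.85, 8.78 and 9.63 at 28 °C. In wild-type mice it had 7.10, 7.01, 7.64, 9.16 and 8.46 at 5 °C, against 8.27, 8.49 and 9.16 at 28 °C. The wild-type cold group thus held both the lowest values of the gene and 1 of the highest. The cold effect was −0.41 ± 0.35 in null mice (limma adjusted p = 0.532) and −0.76 ± 0.35 in wild-type mice (limma adjusted p = 0.153), and neither passed. Without the wild-type cold mouse at 9.16, replicate 4, the wild-type value was −1.09 (limma adjusted p = 0.0242).

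Peg3, a transcription factor gene whose loss in mice alters growth and fat stores, had its larger values between genotypes. At 5 °C it had 8.79, 9.72, 8.63, 8.79 and 9.51 in null mice, against 8.35, 7.58, 8.93, 8.72 and 8.01 in wild-type mice. At 28 °C the lowest, median and highest were 8.13, 8.95 and 9.49 in null mice, against 8.05, 8.38 and 8.63 in wild-type mice. The ranges overlapped at both temperatures. The null minus wild type difference was 0.77 ± 0.26 at 5 °C (95% interval 0.22 to 1.32, limma adjusted p = 0.53) and 0.57 ± 0.24 at 28 °C (95% interval 0.07 to 1.07, limma adjusted p = 0.649), and neither passed. The skeletal muscle score at 5 °C averaged 7.29 ± 1.40 in null and 7.73 ± 1.73 in wild-type mice (SD, n = 5 each), and at 28 °C it averaged 6.85 ± 1.05 in null and 8.44 ± 0.86 in wild-type mice (SD, n = 6 each). In the same order the epithelium score averaged 3.78 ± 0.10, 3.63 ± 0.17, 3.67 ± 0.13 and 3.58 ± 0.12. The B and T cell score averaged 5.40 ± 1.24, 5.30 ± 0.67, 6.13 ± 1.25 and 5.86 ± 1.29. With the muscle, B and T cell and epithelium scores as covariates the Peg3 differences were 0.51 at 5 °C and 0.22 at 28 °C (limma adjusted p = 0.736 and 0.887). The part of each score in that shift was not tested. The cold effect of Peg3 was 0.18 ± 0.25 in null mice and −0.02 ± 0.25 in wild-type mice.

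The ligand, adaptor and remaining growth genes moved little. Igf2 lay between 4.55 and 5.50 on all 22 arrays, not far above the array medians of 4.16 to 4.25. Its cold effect was 0.11 ± 0.14 in null mice (95% interval −0.18 to 0.40) and 0.05 ± 0.14 in wild-type mice (−0.24 to 0.34). Grb10 averaged 6.96 ± 0.13 at 5 °C and 7.06 ± 0.23 at 28 °C in null mice, and 6.93 ± 0.11 and 7.01 ± 0.11 in wild-type mice (SD, n = 5 and 6). Its 95% interval for the cold effect, −0.30 to 0.11 in null mice and −0.28 to 0.13 in wild-type mice, covers changes of up to these sizes. Cdkn1c had a cold effect of −0.02 ± 0.12 in null mice and −0.16 ± 0.12 in wild-type mice.

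Dlk1 was dim, with values from 3.45 to 4.33 around the medians of the arrays. In null mice it had 4.01, 4.04, 3.87, 4.17 and 4.23 at 5 °C, against a lowest, median and highest of 3.86, 4.01 and 4.14 at 28 °C. In wild-type mice it had 3.70, 3.45, 3.50, 3.70 and 4.09 at 5 °C, against 3.55, 4.11 and 4.33 at 28 °C. The cold effect was 0.05 ± 0.13 in null mice and −0.33 ± 0.13 in wild-type mice (limma adjusted p = 0.0899). The wild-type value passed without cold replicate 5 (−0.43, limma adjusted p = 0.0224) and without 28 °C replicate 5 (−0.42, limma adjusted p = 0.017), so its call turned on single mice.

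**Figure D2:**
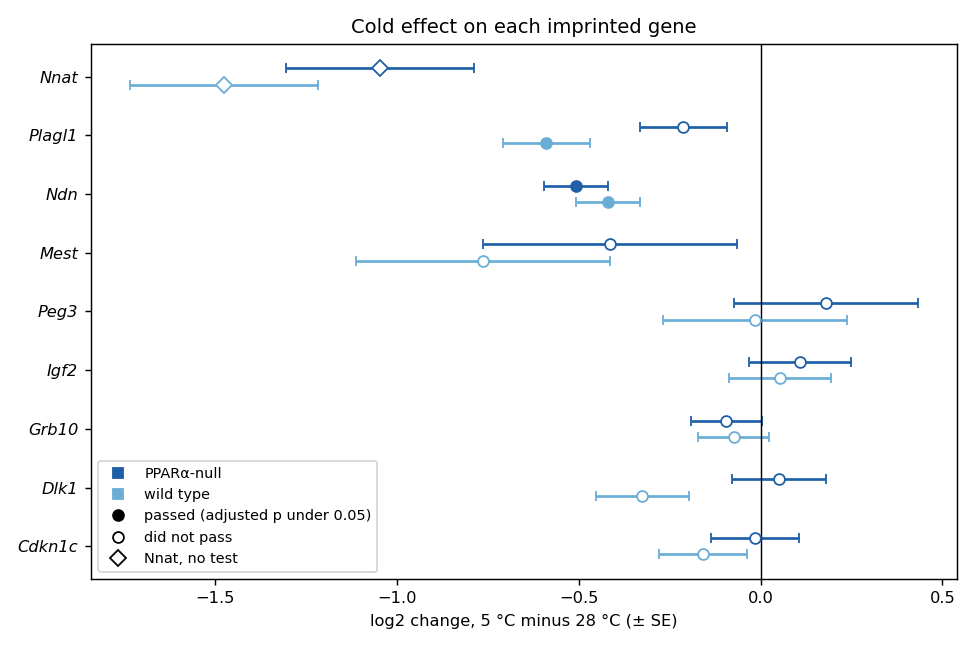
Log2 change between 5 °C and 28 °C (x axis, ± SE from the fit) for each imprinted gene, in PPARα-null mice above wild-type mice. Filled symbols passed at an adjusted p under 0.05, which holds for Ndn in both genotypes and Plagl1 in wild type, and diamonds mark Nnat, which was not tested because its fall chose it.

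No gene of the set passed in a comparison of the genotypes. In null minus wild type, 0 of the 8 genes other than Nnat passed at 28 °C and 0 of 8 at 5 °C, where 0.194% and 0.149% of all genes passed, and at an unadjusted limma p under 0.05 there were 1496 and 1476 of the 22180 genes. The genotype groups overlapped for all 9 measured genes at both temperatures, while 0.555% of all genes showed no overlap at 28 °C and 1.22% at 5 °C. At 5 °C Dlk1 had a difference of 0.38 ± 0.13 (limma adjusted p = 0.556), and at 28 °C Cdkn1c had −0.24 ± 0.12 (limma adjusted p = 0.73). Nnat, whose arrays also chose it, is described only, with −0.05 ± 0.25 at 28 °C and 0.38 ± 0.27 at 5 °C. The value at 5 °C was 0.15 without wild-type replicate 1, 0.18 without null replicate 2 and 0.64 without null replicate 4. For the difference of the cold effects 0 of 8 passed, as did 0% of all genes, with 1137 genes at an unadjusted limma p under 0.05. The intervals of these differences, for example −0.68 to 1.37 for Mest, do not show that the genotypes act alike.

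Imprinted genes lie in clusters, so the neighbours of each gene were read as well. Of 39 listed neighbours 31 were measured, and in cold 1 was higher and 3 were lower in null mice, while 1 was higher and 2 were lower in wild-type mice. Of all genes 13.2% and 16.7% passed in null and wild-type mice (6.33% and 8.3% lower). Their median cold effect was −0.02 in null mice and −0.10 in wild-type mice, beside the medians near 0 over all genes. Blcap spans positions 157556362 to 157566361 of chromosome 2 and holds the whole of Nnat (157560078 to 157562525) between its ends. Blcap averaged 6.64 at 5 °C and 6.92 at 28 °C in null mice, with a cold effect of −0.28 ± 0.12 (limma adjusted p = 0.159), and 6.40 at 5 °C and 6.98 at 28 °C in wild-type mice, where it fell by 0.57 ± 0.12 (limma adjusted p = 0.00184). Because the genes overlap, and no source used here gives the strand of the probes, signal from Nnat RNA in the Blcap probe set was not tested.

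The neighbours at the other loci had mixed values. Beside Mest, Copg2 had cold effects of −0.02 ± 0.09 in null mice and −0.07 ± 0.09 in wild-type mice. Beside Ndn, Magel2, Mkrn3 and Peg12 were dim and none passed, while Atp10a, a flippase gene farther along the chromosome, fell by 0.41 ± 0.11 in null mice (limma adjusted p = 0.0142) and had −0.25 ± 0.11 in wild-type mice (limma adjusted p = 0.137). Beside Dlk1, Meg3 was dim and did not pass, and the noncoding RNA Rian fell by 0.43 ± 0.14 in null mice (limma adjusted p = 0.0432), with −0.25 ± 0.14 in wild-type mice (limma adjusted p = 0.251). Around Cdkn1c, the histone chaperone gene Nap1l4 rose by 0.35 ± 0.06 in null mice and 0.27 ± 0.06 in wild-type mice (limma adjusted p = 0.000494 and 0.00494). The tetraspanin gene Cd81 fell by 0.25 ± 0.06 in null mice and by 0.27 ± 0.06 in wild-type mice (limma adjusted p = 0.00558 and 0.00169). Beside Peg3, Zim1, a maternally expressed zinc finger gene, had null minus wild type differences of 0.63 ± 0.25 at 5 °C and 0.45 ± 0.23 at 28 °C (limma adjusted p = 0.63 and 0.76), in the direction of the Peg3 values, and did not pass either. Usp29, the other measured neighbour of Peg3, was dim, with −0.01 ± 0.18 at 5 °C and 0.30 ± 0.17 at 28 °C (limma adjusted p = 0.997 and 0.785).

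Across other imprinted genes of the mouse the responses went both ways, with more genes lower than higher in cold. Of 52 listed genes, some of them neighbours named above and some imprinted in placenta or brain only, 44 were measured. In null mice 2 were higher and 9 lower at 5 °C, with a median of −0.02, and in wild-type mice 5 were higher and 8 lower, with a median of −0.13. Of all genes 13.2% passed in null mice (6.33% lower and 6.88% higher) and 16.7% in wild type (8.3% lower and 8.35% higher). The counts were not tested against those shares. The genes that passed numbered 8 in both genotypes, 3 in null mice alone and 5 in wild-type mice alone, and no difference between the genotypes passed for any of the 44. Decorin (Dcn), a matrix proteoglycan, fell by 0.41 ± 0.06 in null mice and by 0.48 ± 0.06 in wild-type mice (limma adjusted p = 2.21e-05 and 2.44e-06). Gatm, the first enzyme of creatine synthesis, fell by 0.52 ± 0.12 and by 0.58 ± 0.12 in the same order (limma adjusted p = 0.00434 and 0.00136). Osbpl5, an oxysterol binding protein gene, fell by 0.43 ± 0.10 in null mice (limma adjusted p = 0.0036) and had −0.16 ± 0.10 in wild-type mice (limma adjusted p = 0.292). In the other direction the organic cation transporter gene Slc22a2 rose by 0.90 ± 0.17 in null mice and 0.70 ± 0.17 in wild-type mice (limma adjusted p = 0.000704 and 0.00503), at levels near the array medians.

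**Figure D3:**
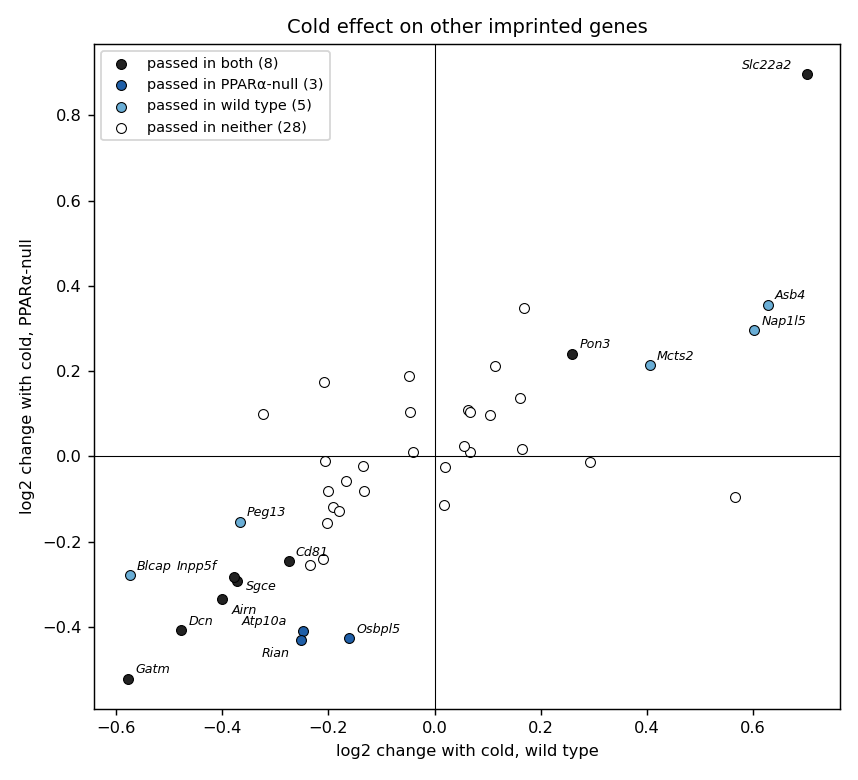
Log2 change between 5 °C and 28 °C of 44 other imprinted genes, in PPARα-null mice (y axis) and wild-type mice (x axis), 1 point per gene, coloured by where it passed at an adjusted p under 0.05. The genes that passed are named, 8 in both genotypes, 3 in PPARα-null mice and 5 in wild type, and they lie on both sides of 0.

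Other genes of growth and fat pathways were read as lists. In the IGF axis, 14 of 16 listed genes were measured, and 4 were lower in null mice and 6 in wild-type mice, with none higher and medians of −0.15 and −0.33. Over all genes 6.33% were lower in null mice and 8.3% in wild type. The IGF binding protein gene Igfbp6 fell by 0.62 ± 0.08 in null mice and by 0.72 ± 0.08 in wild-type mice (limma adjusted p = 6e-06 and 8.05e-07). Igfbp5 fell by 0.52 ± 0.08 and by 0.48 ± 0.08 in null and wild-type mice, and Igfbp7 by 0.26 ± 0.06 and by 0.39 ± 0.06. The ligand gene Igf1 fell by 0.34 ± 0.10 in null mice (limma adjusted p = 0.027) and by 0.38 ± 0.10 in wild-type mice (limma adjusted p = 0.0103), whereas Igf2 did not pass. Its receptor gene Igf1r fell by 0.45 ± 0.10 in wild-type mice (limma adjusted p = 0.00323) and had −0.18 ± 0.10 in null mice (limma adjusted p = 0.31), and the IGF2 receptor gene Igf2r did not pass in either.

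A list of 17 genes of fat growth and adipogenesis was fully measured, with 1 higher and 5 lower in null mice, 1 higher and 7 lower in wild-type mice, and medians of −0.19 and −0.23, where 13.2% and 16.7% of all genes passed in null and wild-type mice (6.33% and 8.3% lower). Cebpb, an early transcription factor of adipogenesis that also answers to cAMP, rose by 0.77 ± 0.10 in null mice and 0.94 ± 0.10 in wild-type mice (limma adjusted p = 1.2e-05 and 7.66e-07). The Notch receptor gene Notch2 fell by 0.39 ± 0.07 in null mice and by 0.42 ± 0.07 in wild-type mice (limma adjusted p = 0.000355 and 0.000149). Cav2, which encodes caveolin 2, fell by 0.31 ± 0.09 in null mice (limma adjusted p = 0.0166), and in wild-type mice the adipogenic factor gene Cebpd fell by 0.72 ± 0.17 and the Notch target Hes1 by 0.34 ± 0.09 (limma adjusted p = 0.0037 and 0.0109). Sfrp5, an inhibitor of WNT ligands whose RNA, like that of Mest, varies with fat expansion in mice, fell by 1.31 ± 0.29 in null mice (limma adjusted p = 0.00283) and by 0.95 ± 0.29 in wild-type mice (limma adjusted p = 0.0242). Bmp3, a ligand of the same expansion group, had −0.38 ± 0.27 in null mice (limma adjusted p = 0.428) and fell by 0.94 ± 0.27 in wild-type mice (limma adjusted p = 0.0172). Lep, the leptin gene, fell by 0.83 ± 0.25 in null mice (limma adjusted p = 0.0285) and had −0.66 ± 0.25 in wild-type mice (limma adjusted p = 0.0753). A list of 14 cell cycle genes was drawn up by function, not by place near Cdkn1c, and 13 were measured. Of these 2 were lower in null mice (Cdk4 and Cdkn1b), and in wild-type mice Cdkn1b was lower and Cdkn1a higher. Cdkn1b, which encodes p27, fell by 0.25 ± 0.08 in null mice and by 0.37 ± 0.08 in wild-type mice (limma adjusted p = 0.0479 and 0.00246), where its imprinted relative Cdkn1c did not pass.

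Markers of the cells in the pad moved with temperature at the same time. Of 11 measured markers of preadipocytes, fibroblasts and matrix, 9 were lower at 5 °C in each genotype. Their mean score was 8.95 to 9.03 at 5 °C and 9.45 to 9.63 at 28 °C in null mice, and 8.89 to 9.09 at 5 °C and 9.47 to 9.70 at 28 °C in wild-type mice. All 8 macrophage markers were lower in each genotype, and all 7 markers of thermogenic adipocytes were higher. Over all genes 6.33% were lower and 6.88% higher in null mice, and 8.3% were lower and 8.35% higher in wild type. The score of 8 mature adipocyte markers was 11.04 to 11.28 at 5 °C and 11.13 to 11.30 at 28 °C in null mice, and 10.91 to 11.21 at 5 °C and 11.13 to 11.30 at 28 °C in wild-type mice, with 2 of 8 markers lower in null mice and 1 of 8 in wild-type mice. With the preadipocyte and matrix score as a covariate, no gene of the set passed for cold. Ndn then had −0.28 in null mice and −0.17 in wild-type mice (limma adjusted p = 0.765 and 0.873), and Plagl1 had −0.85 in wild-type mice (limma adjusted p = 0.405). In that fit 9 and 5 of all genes passed in null and wild-type mice. The score differed between the temperatures without overlap, so this fit cannot separate the score from the temperature. The loss of calls in it therefore does not show that the score accounts for the cold effects. Skeletal muscle and B and T cell scores differed widely between mice, at 6.00 to 10.33 for muscle in wild-type mice at 5 °C, with no marker passing, and with these scores and that of epithelium as covariates the counts stayed at 1 and 2.

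How the genes varied from mouse to mouse within a group was read with the group means removed. Nnat was chosen on these same arrays, so its permutation p-values below are given as a description. The pooled within-group SD was 0.62 for Mest, 0.46 for Nnat and 0.45 for Peg3, against a median of 0.22 over all genes. These exceed the SD of 98.5%, 95.8% and 95.4% of genes. The other 6 genes had SDs of 0.14 to 0.24, above those of 20% to 58.5% of genes. Mest and Peg3 were variable at both temperatures, with SDs of 0.72 and 0.52 at 5 °C and 0.54 and 0.38 at 28 °C. Nnat was variable at 5 °C only, with an SD of 0.66 there and 0.17 at 28 °C. Ndn, which fell in both genotypes, had the smallest pooled SD of the set.

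Deviations from the group means were correlated over the 22 arrays for the 36 pairs of measured genes. None passed after adjustment over the 36 pairs, by Pearson's r or by Spearman's rho, and 3 had an unadjusted permutation p under 0.05 for Pearson's r. Mest and Plagl1 had r = 0.65 (permutation p = 0.00758, adjusted p = 0.273) and rho = 0.58 (permutation p = 0.0168, adjusted p = 0.374), and r = 0.67 without the 2 arrays farthest out in Mest. Nnat and Mest had r = 0.56 (permutation p = 0.0224, adjusted p = 0.349) and rho = 0.39 (permutation p = 0.127, adjusted p = 0.54), and r = 0.46 without the 2 arrays farthest out in Nnat. Nnat and Peg3 had r = 0.56 (permutation p = 0.0291, adjusted p = 0.349) and rho = 0.58 (permutation p = 0.0208, adjusted p = 0.374), and r = 0.74 without 2 arrays. Within single groups the Nnat and Mest r was 0.94 in null mice and 0.73 in wild-type mice at 5 °C, with 5 mice each and no test. At 28 °C it was −0.01 in null mice and 0.60 in wild-type mice (exact permutation p = 0.975 and 0.256). Without null 28 °C replicate 4, 1 pair passed, Mest and Plagl1, and the count depends on that mouse.

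The same deviations were set against the 9 cell type scores, 81 relations in all, a family added after the data were seen. By Pearson's r 2 passed after adjustment over the 81, and by Spearman's rho none did. Nnat went with the mature adipocyte score, at r = 0.79 (permutation p = 0.00039, adjusted p = 0.0312) and rho = 0.70 (permutation p = 0.00244, adjusted p = 0.0888), with r = 0.66 without the 2 arrays farthest out. Lep is among the markers of this score and varied more between mice than the score did. Its SD at 5 °C was 0.48 in null and 0.68 in wild-type mice, against 0.09 and 0.12 for the score. The share of Lep or of any other single marker in this r was not tested. Mest against the same score had r = 0.69 (permutation p = 0.00281, adjusted p = 0.0759). Grb10 ran against the B and T cell score, at r = −0.72 (permutation p = 0.00077, adjusted p = 0.0312) and rho = −0.70, with r = −0.59 without 2 arrays. Cell numbers were not measured, so the part of cell content in these relations was not tested.

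**Figure D4:**
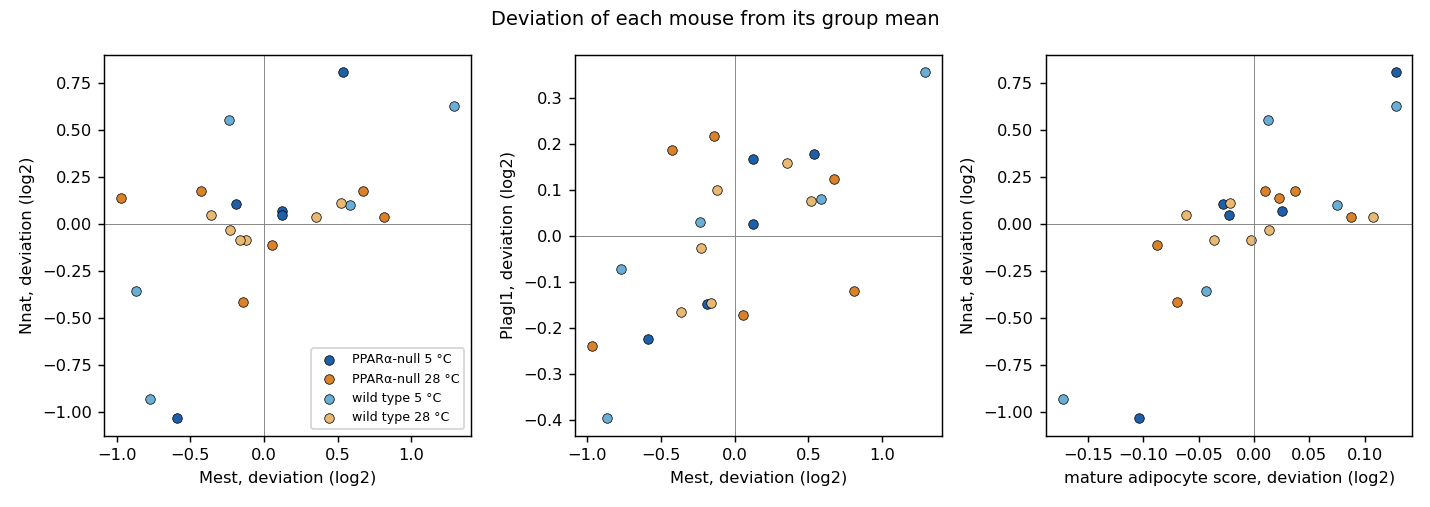
Deviation of each of the 22 mice from the mean of its group, in log2 units, for Nnat against Mest (left), Plagl1 against Mest (middle) and Nnat against the score of 8 mature adipocyte markers (right), coloured by group. Pearson's r is 0.56, 0.65 and 0.79, and the extreme points of Nnat are mice at 5 °C.

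For Nnat, Mest and Igf2 the genes with the most similar deviations were looked up among 10451 genes at or above the median level, leaving aside predicted genes, short noncoding RNAs and chemosensory receptors. This is a description over 22 arrays that share their groups and handling. Nearest to Nnat were Smad6, an inhibitor of BMP signalling (r = 0.89), Plin4, a lipid droplet coat gene (0.86), Tmem43 (0.85), Fam102b (0.84) and Fry (0.83). Nearest to Mest were Syp, which encodes synaptophysin (0.94), the intermediate filament gene Vim (0.93), Lbp, which encodes a binding protein for bacterial lipopolysaccharide (0.92), Ankrd29 (0.90) and Mycbp2 (0.88). Nearest to Igf2 were Vars2 (0.76), Zfp931 (0.75), Cyp2c55 (0.74), Dusp11 (0.73) and Supt3 (0.71). The other imprinted genes stood farther down, with Mest at rank 337 and Peg3 at rank 339 for Nnat, and Plagl1 at rank 160 and Nnat at rank 327 for Mest. Of the 10 genes nearest to Nnat and Mest, 6 were lower at 5 °C and 1 was higher in null mice, and 7 were lower and 0 higher in wild-type mice. Over all genes 6.33% were lower and 6.88% higher in null mice, and 8.3% and 8.35% in wild type. Brighter genes passed more often. A fit of only the brighter 50% had 3505 in null mice and 4093 in wild type, against 2930 and 3693 with all genes. The counts among these 10 were not tested against such shares. Smad6 was higher at 5 °C in null mice (0.44 ± 0.14, limma adjusted p = 0.037) and had 0.39 ± 0.14 in wild-type mice (limma adjusted p = 0.0575), against lower Nnat in the same groups. Ankrd29 fell by 1.01 ± 0.19 in null mice and by 1.32 ± 0.19 in wild-type mice (limma adjusted p = 0.000744 and 3.06e-05).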

How the data were processed

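RNA of inguinal white fat from 22 mice was measured on Affymetrix whole-transcript arrays, from 100 ng of RNA per sample with an integrity number above 8, per the labels. The authors deposited log2 values per probe set made with RMA, per the submitters' processing notes. Neither names an RMA version or an annotation build. Each group had 10 housed mice per the labels, which do not say how those for arrays were picked.

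Of 41345 probe sets, 23521 had 1 gene symbol, 1814 several and 16010 none. The brightest single-symbol probe set stood for each of 22180 genes, with no further scaling and no low-signal filter. All 4 groups were fitted together with limma (3.58.1, R 4.3.3; 18 residual and 3.35 prior degrees of freedom), which gave the cold effect in each genotype, the genotype effect at each temperature and the difference of the cold effects. Pearson and Spearman correlations of deviations from group means used 100000 permutations within groups, two-sided, over the 36 pairs of the 9 measured genes; 45 pairs had been planned for 10 genes. A cell type score averages the log2 values of its markers. The fit was tested on simulated data. Tools were the R package data.table (1.17.8), pandas 2.3.3, numpy 2.4.6, scipy 1.17.1 and matplotlib 3.10.9.

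The genes followed and the lists were chosen with earlier results of these data known. The text names every gene of the set, each cluster neighbour that passed and only some of the neighbours that did not. From the other lists it names up to 4 genes per list and comparison, by smallest p among those that passed. It also names the 5 genes nearest to Nnat, Mest and Igf2, where the rule passes over predicted genes, small RNAs and receptor families. The plot of other imprinted genes names each that passed. Igf2r, Bmp3 and Lep fall outside these rules and were named after their values were seen. Labels share replicate numbers across groups, but arrays with the same number did not deviate together (31 pairs, r −0.25 to 0.35, median −0.04; 150 other pairs, −0.33 to 0.44, median 0.00), so they were not paired. Separate animals are the replicates. Genotype counts had been planned over all measured genes and are given without Nnat, whose values on these arrays chose the set. Alternatives were 2 other scalings, 2 filters on dim genes, averaging the probe sets of a gene, another variance model, array weights, a replicate block, cell type scores as covariates, fits of only the groups compared, and leaving out each array.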

Additional observations from a re-analysis of the deposited data

Results flagged for a closer look

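Cdkn1c in PPARα-null mice at 28 °C was flagged for 1 mouse far from the others. Replicate 5 had a log2 value of 5.64, and the nearest of the other 5 had 5.24, a gap that is 0.64 of the whole range of the group. It was the only such value among 36 groups of values examined (9 genes in 4 groups), where chance flags about 1 in 20. Without that mouse the cold effect of Cdkn1c in null mice was 0.06, against −0.02 with it, and neither passed.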

How the results depend on the processing

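The counts of genes that passed (1 in PPARα-null mice and 2 in wild-type mice for cold, 0 for the difference between the genotypes in their cold effect, and 0 in each genotype comparison) stayed within 1 gene of these values under each alternative but 1. With the preadipocyte and matrix score as a covariate the cold counts were 0 in PPARα-null mice and 0 in wild type. That score differs between the temperatures without overlap, and 9 and 5 of all genes passed in that fit. With the replicate block the counts were 1, 2, 0, 0 and 0, with 2683 and 3512 of all genes passing for cold in null and wild-type mice. Leaving out each array in turn gave 0 to 1 correlated pairs, and regressing the muscle, B and T cell, epithelium and matrix scores out gave 3 (Nnat with Mest, Mest with Plagl1, Dlk1 with Grb10); the cause was not tested. Over the 22 arrays left out in turn, the wild-type count was 2 to 3, the third being Mest (without cold replicate 4) or Dlk1 (without replicate 5 of either temperature). The cold effect of Ndn was −0.58 to −0.44 in null mice and −0.46 to −0.38 in wild-type mice, that of Plagl1 in wild-type mice −0.68 to −0.49, and these 3 passed throughout. The value of Nnat, with no test, was −1.25 to −0.79 in null mice and −1.63 to −1.24 in wild-type mice. Subtracting array medians moved the median of all genes by less than 0.1. Dlk1 is not among the brighter 50% of genes and has no value under that filter.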
